A study of Mus musculus with 9 samples.

Results

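Radial glia and neural stem cell genes are described here as 10 genes, chosen by symbol from the raw count table: Nes, Vim, Pax6, Fabp7, Ednrb, Ptprz1, Hmga2, Tnc, Emx2 and Nr2e1. All 10 were among the 24503 gene rows, and all 10 passed the filter on low counts that left 13560 genes for testing. The cells were primary neural stem cells of the mouse cortex at E13.5, enriched as neurospheres and then grown on laminin (5 µg/mL) with FGF (10 ng/mL) and EGF (20 ng/mL). The 3 groups were cells transduced with the second hairpin against Rad21 (shRad21_2), with the first hairpin (shRad21_1) or with a non-targeting hairpin (shNT), with 3 libraries each. All 3 groups carried the Phf2flox/flox genotype that the labels call wild type, and no Cre is named for any of them. Rad21 encodes the kleisin subunit of cohesin, and the question was which transcripts differ when its mRNA is lowered. The labels do not say whether the libraries of a group came from separate cultures or embryos, so the p-values rest on differences among libraries that could be technical repeats.

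Radial glia are the stem cells of the embryonic cortex. They span its wall, divide at the ventricle and give rise first to neurons and later to astrocytes and oligodendrocytes, and cells with many of their features can be expanded in culture with FGF and EGF. They are known by their intermediate filaments nestin and vimentin, by the brain lipid-binding protein made from Fabp7, by patterning factors such as PAX6, EMX2 and the orphan receptor TLX (Nr2e1), and by surface and matrix molecules such as the endothelin receptor EDNRB, the receptor phosphatase PTPRZ1 and tenascin-C. HMGA2 is a chromatin protein of young stem cells whose level declines with age and which let-7 microRNAs repress.

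A library held between 34780003 and 46644607 counts, and 3 counts equalled 0.0664 to 0.0880 CPM (the count scaled to a common library size, on TMM-scaled totals). Rad21 mRNA was at 82.0, 91.2 and 82.5 CPM with shRad21_2 and at 187, 174 and 178 CPM with shRad21_1, against 531, 450 and 456 CPM with shNT, so both hairpins lowered it. Some libraries stood apart. Along the leading principal component (60.2% of variance), shRad21_1 replicate 1 lay at 12.6, on the side of the shRad21_2 libraries (50.8 to 58.3), while shRad21_1 replicates 2 and 3 lay at -20.3 and -21.2, nearer the shNT libraries (-48.3 to -39.8). shRad21_1 replicates 2 and 3 were close to each other (chi-square per gene 2.18, against 69.4 and 69.8 for the other pairs of that group), as were shNT replicates 2 and 3 (3.19, against 23.1 and 24.3). shRad21_2 replicate 1 held 0.483% of its counts in Rn45s, the ribosomal RNA precursor gene, against 0.0552% to 0.114% in the other 8 libraries. Results are therefore also given without single libraries, or with the close pairs summed to 1 sample each, where that changes them.

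Of the 10 genes, 3 were higher (Nes, Pax6 and Emx2) and 3 lower (Ednrb, Ptprz1 and Fabp7) with shRad21_2 than with shNT at an adjusted p under 0.05. Over all 13560 genes, 43.6% were called in that comparison, 21.1% higher and 22.5% lower, so the 60.0% among these 10 genes is to be read against a large background. With shRad21_1, 1 was higher (Hmga2) and 1 lower (Ednrb), beside 9.82% of all genes called, 4.19% higher and 5.63% lower. Between the hairpins, Nes and Pax6 were higher and Ednrb and Ptprz1 lower with shRad21_2 than with shRad21_1, beside 26.3% of all genes called, 11.9% higher and 14.4% lower. The median log2 fold change of the 10 genes was 0.16 for shRad21_2, -0.05 for shRad21_1 and -0.19 between the hairpins, and that of all genes tested was 0.012, 0.0052 and -0.0022. The genes thus had no common direction. The groups did not overlap in CPM for 7 of the 10 genes with shRad21_2 (55.9% of all genes), for 4 with shRad21_1 (40.2% of all genes) and for 7 between the hairpins (39.2% of all genes).

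**Figure D1:**
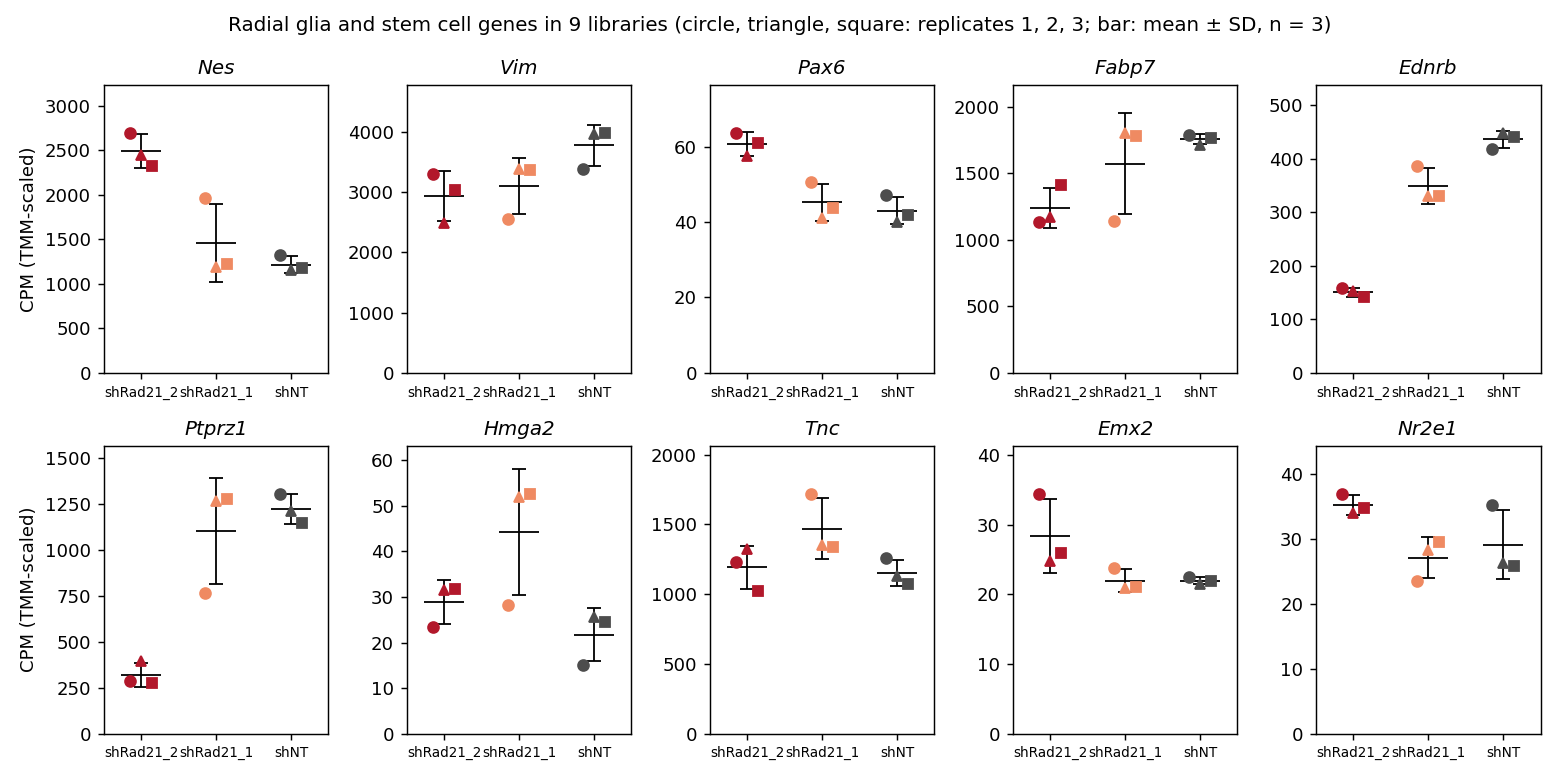
CPM on TMM-scaled totals of the 10 genes in the 9 libraries, 1 panel per gene, with shRad21_2, shRad21_1 and shNT from left to right. Symbols are replicates 1, 2 and 3 and bars are mean ± SD (n = 3). The 3 shRad21_2 libraries lie above all shNT libraries for Nes, Pax6 and Emx2 and below them for Ednrb, Ptprz1, Fabp7 and Vim. Within shRad21_1, replicate 1 lies apart from replicates 2 and 3 for Nes, Vim, Fabp7, Ednrb, Ptprz1, Hmga2 and Tnc, among others.

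The windows around the gene starts of the 4 genes with the largest calls are given below as RefSeq lists them for GRCm38.p6 (the mm10 build), from 250 bases before to 50 bases after the start, in lower case on the strand of the gene. All 10 genes matched the RefSeq table. Capitals mark matches, on either strand, to the SOX core ATTGT, the CCAAT box CCAAT and the GC box GGGCGG, none of which overlap another match in these 4 windows. Nes lies at chr3:87970843-87971142 on the plus strand, Ptprz1 at chr6:22875252-22875551 on the plus strand, Ednrb at chr14:103843652-103843951 on the minus strand and Hmga2 at chr10:120476420-120476719 on the minus strand.
Nes: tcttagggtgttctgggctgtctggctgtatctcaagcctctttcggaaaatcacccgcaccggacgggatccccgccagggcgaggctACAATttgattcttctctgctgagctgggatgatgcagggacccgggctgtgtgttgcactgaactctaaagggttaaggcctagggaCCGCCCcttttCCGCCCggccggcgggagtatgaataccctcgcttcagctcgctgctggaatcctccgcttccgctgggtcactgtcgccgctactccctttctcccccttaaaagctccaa
Ptprz1: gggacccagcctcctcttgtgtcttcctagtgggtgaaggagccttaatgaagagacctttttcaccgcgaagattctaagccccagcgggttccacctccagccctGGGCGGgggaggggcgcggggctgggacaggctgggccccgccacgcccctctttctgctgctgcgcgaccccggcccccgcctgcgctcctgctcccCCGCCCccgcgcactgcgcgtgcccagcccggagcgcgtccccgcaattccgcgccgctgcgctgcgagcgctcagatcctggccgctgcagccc
Ednrb: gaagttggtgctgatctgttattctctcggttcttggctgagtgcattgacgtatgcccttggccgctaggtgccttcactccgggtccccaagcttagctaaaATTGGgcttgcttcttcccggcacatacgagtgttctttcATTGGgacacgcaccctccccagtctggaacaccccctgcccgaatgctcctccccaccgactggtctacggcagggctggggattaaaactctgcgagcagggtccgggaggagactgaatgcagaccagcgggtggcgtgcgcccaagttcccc
Hmga2: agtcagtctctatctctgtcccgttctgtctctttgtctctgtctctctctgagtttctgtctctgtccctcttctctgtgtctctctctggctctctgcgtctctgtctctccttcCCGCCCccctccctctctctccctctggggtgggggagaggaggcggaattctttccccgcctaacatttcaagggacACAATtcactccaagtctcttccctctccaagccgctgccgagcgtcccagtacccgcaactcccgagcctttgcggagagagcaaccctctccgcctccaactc

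The 4 windows shared no single element. Those of Nes and Ptprz1 held 2 GC boxes each and that of Hmga2 held 1, whereas that of Ednrb held 2 CCAAT boxes and no GC box. Nes and Hmga2 had 1 SOX core each. The window of Ptprz1 was the richest in G and C among those of the 10 genes (71.7%), against 58.7% for Nes, 58.7% for Ednrb and 57.7% for Hmga2 and a median of 52.7% over the 32851 windows of the table. Of those windows, 35.7% held a GC box, 37.4% a CCAAT box and 31.0% a SOX core. Among the 10 genes, of which Pax6 and Tnc have 2 windows each, a GC box was in a window of 5, a CCAAT box of 5 and a SOX core of 5, and the windows of Tnc overlap each other.

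The filament genes Nes and Vim had different values under the same hairpin. Nes (ENSMUSG00000004891.16, chromosome 3, 87971078 to 87980451) encodes nestin, the filament protein by which neural stem cells are usually recognised. It stood at 2695, 2451 and 2325 CPM with shRad21_2, at 1962, 1191 and 1229 CPM with shRad21_1, and at 1325, 1153 and 1174 CPM with shNT. All shRad21_2 libraries were above all others, and within shRad21_1 only replicate 1 was above the shNT range. Nes rose 2.05-fold with shRad21_2 against shNT (log2 fold change 1.03, SE 0.17, adjusted p = 0.00116) and 1.71-fold against shRad21_1 (0.77, SE 0.17, adjusted p = 0.0102). The second of these calls was lost when the close pairs of libraries were summed (0.65, adjusted p = 0.0689). For shRad21_1 against shNT the value was 0.26 (SE 0.17, adjusted p = 0.370), and -0.01 without shRad21_1 replicate 1.

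Vim (ENSMUSG00000026728.9, chromosome 2, 13573927 to 13582826) encodes vimentin, the filament with which nestin assembles. It stood at 3294, 2484 and 3037 CPM with shRad21_2, at 2559, 3377 and 3362 CPM with shRad21_1, and at 3388, 3970 and 3981 CPM with shNT. Every library of either hairpin was below every shNT library (the nearest at 3377 and 3388 CPM), yet neither difference passed the test. The log2 fold change was -0.36 with shRad21_2 (SE 0.14, adjusted p = 0.0530) and -0.29 with shRad21_1 (SE 0.14, adjusted p = 0.214). The first of these lay at the threshold: it was called without shNT replicate 1 (-0.44, adjusted p = 0.0470), without shRad21_1 replicate 1 (-0.36, adjusted p = 0.0174) or without shRad21_2 replicate 1 (-0.45, adjusted p = 0.0418), as well as by the DESeq2 Wald test (adjusted p = 0.0303), limma-voom (0.0488), library totals (0.0266), the stricter filter (0.0457) and a fit of 2 groups (0.0315), within adjusted p-values of 0.0111 to 0.172 over 19 alternatives. The ratio of Nes to Vim CPM was 0.82, 0.99 and 0.77 with shRad21_2, 0.77, 0.35 and 0.37 with shRad21_1, and 0.39, 0.29 and 0.29 with shNT. In this ratio shRad21_1 replicate 1 lay with the shRad21_2 libraries and the other shRad21_1 libraries within the shNT range.

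Other intermediate filament genes were measured alongside them. Of 16 listed, including the lamins and the linker gene Plec, 12 were tested. With shRad21_2, 2 rose (Nes and Lmnb2) and 2 fell (Plec and Gfap), with a median log2 fold change of -0.26, and these 33.3% are below the 43.6% of all genes called. Between the hairpins, 2 were higher and 4 lower with shRad21_2 (50.0%, beside 26.3% of all genes). With shRad21_1 edgeR called 0, with 2 (Synm and Ina) at an unadjusted p under 0.05, and both the DESeq2 Wald test and limma-voom also called 0. Lmnb2, a nuclear lamin, averaged 129 ± 13.6 CPM with shRad21_2 and 87.3 ± 6.67 CPM with shNT (log2 fold change 0.56, SE 0.10, adjusted p = 0.00124). Plec, which encodes the linker plectin, averaged 10.7 ± 4.97 CPM with shRad21_2 and 57.4 ± 11.98 CPM with shNT (-2.42, SE 0.50, adjusted p = 0.00355). Gfap, the filament gene of astrocytes, had 0, 1 and 3 counts with shRad21_2, 7, 549 and 567 counts with shRad21_1 and 168, 364 and 473 counts with shNT. The filament genes of muscle and epithelium were at or near 0, with Des at most 0.159 CPM in the mean of a group and Krt8 and Krt18 at 1 count each in 1 library.

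Fabp7 (ENSMUSG00000019874.11, chromosome 10, 57784881 to 57788450) encodes the fatty acid-binding protein of radial glia. It stood at 1130, 1172 and 1413 CPM with shRad21_2, at 1139, 1803 and 1778 CPM with shRad21_1, and at 1788, 1713 and 1765 CPM with shNT. The shRad21_2 libraries were below all shNT libraries, and shRad21_1 replicate 1 lay among them. Fabp7 fell 1.42-fold with shRad21_2 (log2 fold change -0.50, SE 0.16, adjusted p = 0.0281), and its value was -0.16 with shRad21_1 (SE 0.16, adjusted p = 0.580). The call with shRad21_2 was lost without shNT replicate 1 (-0.49), 2 (-0.52) or 3 (-0.50) or without shRad21_2 replicate 1 (-0.44) or 2 (-0.46), and with close pairs summed (-0.51), with adjusted p-values up to 0.0936. Between the hairpins the value of Fabp7 was -0.35 (SE 0.16, adjusted p = 0.137), and it was called without shRad21_1 replicate 1 (-0.53, adjusted p = 0.00238). Of 9 genes of the family, 3 were tested, and 4 were at 0 in all libraries. Fabp5, the form with the next highest level, averaged 266 ± 22.1 CPM with shRad21_2, 375 ± 95.9 CPM with shRad21_1 and 672 ± 64.6 CPM with shNT, and it fell under both hairpins (-1.34, SE 0.17, adjusted p = 2.41e-04, and -0.84, SE 0.17, adjusted p = 0.0140). The call of Fabp5 with shRad21_1 was lost with close pairs summed (-0.99, adjusted p = 0.0723).

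The receptor genes Ednrb and Ptprz1 had the largest decreases of the 10 with shRad21_2. Ednrb (ENSMUSG00000022122.15, chromosome 14, 103814625 to 103844402) encodes the endothelin receptor type B, a G protein-coupled receptor of glia and of neural crest cells. It stood at 158, 152 and 142 CPM with shRad21_2, at 387, 330 and 330 CPM with shRad21_1, and at 419, 448 and 441 CPM with shNT. The 3 groups did not overlap, with shRad21_1 between the others. Ednrb fell 2.89-fold with shRad21_2 (log2 fold change -1.53, SE 0.08, adjusted p = 2.78e-06) and 1.25-fold with shRad21_1 (-0.32, SE 0.08, adjusted p = 0.0371), and it was 2.31-fold lower with shRad21_2 than with shRad21_1 (-1.21, SE 0.08, adjusted p = 3.34e-05). The call with shRad21_1 was lost without shNT replicate 1 (-0.35), 2 (-0.30) or 3 (-0.31) or without shRad21_1 replicate 2 or 3 (-0.28 each), and with close pairs summed (-0.27), and the calls with shRad21_2 held in all 9 such fits.

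Ednra and Ece1 of the endothelin system were also lower with shRad21_2. Of 7 genes listed, Ednrb included, 4 were tested. With shRad21_2, 3 fell and 0 rose (median log2 fold change -1.13, 75.0% called beside 43.6% of all genes), and with shRad21_1, 2 fell and 0 rose (median -0.36, 50.0% beside 9.82%). Ece2, a second converting enzyme gene, was not called in either. Ednra, the type A receptor, averaged 3.996 ± 0.265 CPM with shRad21_2, 6.69 ± 0.625 CPM with shRad21_1 and 9.20 ± 1.150 CPM with shNT. It fell with shRad21_2 (-1.20, SE 0.14, adjusted p = 1.67e-04) and had a value of -0.46 with shRad21_1 (SE 0.14, adjusted p = 0.0682). Ece1, the protease that releases active endothelin, averaged 21.6 ± 0.556, 34.0 ± 2.99 and 45.1 ± 4.13 CPM in the same order of groups. It fell with shRad21_2 (-1.06, SE 0.10, adjusted p = 4.02e-05) and with shRad21_1 (-0.41, SE 0.10, adjusted p = 0.0290). That second call was lost without shNT replicate 2 or 3 (-0.37 each) or without shRad21_1 replicate 1 (-0.33), 2 (-0.45) or 3 (-0.44), and with close pairs summed (-0.40). The ligand genes Edn1, Edn2 and Edn3 had at most 5 counts in any library.

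Ptprz1 (ENSMUSG00000068748.7, chromosome 6, 22875502 to 23052916) encodes a receptor tyrosine phosphatase with chondroitin sulfate chains that binds pleiotrophin, contactin-1 and tenascin-C. It stood at 286, 393 and 274 CPM with shRad21_2, at 768, 1263 and 1274 CPM with shRad21_1, and at 1305, 1213 and 1147 CPM with shNT. The shRad21_2 libraries lay below all others, and shRad21_1 replicate 1 lay between them and the rest. Ptprz1 fell 3.85-fold with shRad21_2 against shNT (log2 fold change -1.94, SE 0.20, adjusted p = 6.67e-05) and 3.47-fold against shRad21_1 (-1.79, SE 0.20, adjusted p = 2.98e-04), and both calls held without each library in turn. With shRad21_1 its value was -0.15 (SE 0.19, adjusted p = 0.674), and 0.05 without shRad21_1 replicate 1.

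Tnc (ENSMUSG00000028364.15, chromosome 4, 63959785 to 64047015) encodes tenascin-C, the matrix protein of the stem cell niche. It stood at 1230, 1323 and 1025 CPM with shRad21_2, at 1720, 1350 and 1339 CPM with shRad21_1, and at 1257, 1132 and 1071 CPM with shNT. The shRad21_1 libraries were above all shNT libraries, while those of shRad21_2 overlapped them. The log2 fold change was 0.05 with shRad21_2 (SE 0.13, adjusted p = 0.779) and 0.35 with shRad21_1 (SE 0.13, adjusted p = 0.109), so neither passed the test.

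Among 22 ligands, partners and matrix relatives of PTPRZ1 and tenascin-C, themselves included, 20 were tested. With shRad21_2, 10 fell and 4 rose (median log2 fold change -0.74), 70.0% called beside 43.6% of all genes. With shRad21_1, 1 fell and 2 rose (median -0.16), which is 3 of 20 beside 9.82% of all genes. The adhesion molecule genes Cntn1 and Nrcam had the lowest log2 fold changes with shRad21_2. Cntn1 averaged 13.4 ± 0.790 CPM with shRad21_2, 51.2 ± 13.9 CPM with shRad21_1 and 76.7 ± 27.3 CPM with shNT (-2.52 for shRad21_2, SE 0.26, adjusted p = 7.30e-05). Nrcam averaged 18.8 ± 3.05, 46.9 ± 12.1 and 106 ± 2.93 CPM in the same order and fell under both hairpins (-2.50, SE 0.19, adjusted p = 1.23e-05, and -1.18, SE 0.18, adjusted p = 0.00460). Itgb8, an integrin subunit, fell with shRad21_2 (-1.82, SE 0.22, adjusted p = 1.69e-04). The proteoglycan gene Acan averaged 1.05 ± 0.257 CPM with shRad21_2, 0.918 ± 0.348 CPM with shRad21_1 and 0.120 ± 0.0117 CPM with shNT, and it rose under both (3.08, SE 0.43, adjusted p = 3.89e-04, and 2.89, SE 0.43, adjusted p = 0.00401). Vcan, which encodes versican, rose as well (0.58, SE 0.13, adjusted p = 0.00630 with shRad21_2, and 0.70, SE 0.13, adjusted p = 0.0113 with shRad21_1). The call of Vcan with shRad21_1 was lost without shNT replicate 2 (0.69) or 3 (0.67). Summing the close pairs ended the shRad21_1 calls of both Acan (2.78, adjusted p = 0.0587) and Vcan (0.71, adjusted p = 0.115).

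**Figure D2:**
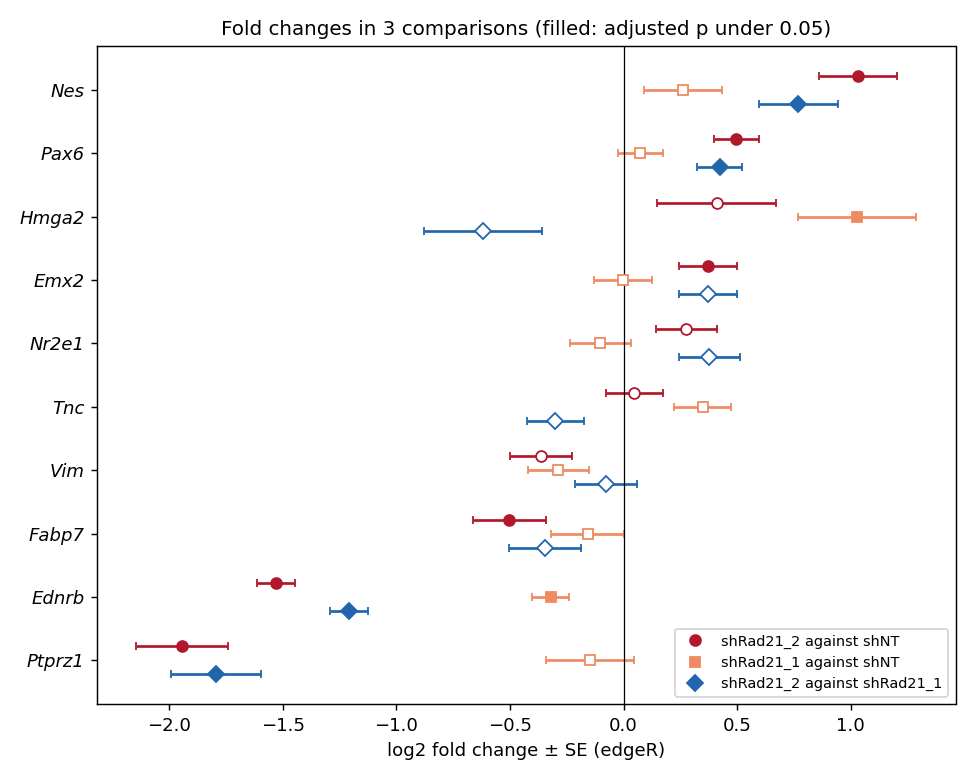
Log2 fold changes (x axis) of the 10 genes with the SE of the edgeR fit, ordered by shRad21_2 against shNT (circles), with shRad21_1 against shNT (squares) and shRad21_2 against shRad21_1 (diamonds). Filled symbols passed an adjusted p of 0.05. Ptprz1 and Ednrb have the lowest values with shRad21_2 (-1.94 and -1.53) and Nes the highest (1.03), and Hmga2 lies at 0.41 with shRad21_2 and at 1.03 with shRad21_1.

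The transcription factor genes Pax6, Emx2 and Nr2e1 had low levels and small differences. Pax6 (ENSMUSG00000027168.21, chromosome 2, 105668900 to 105697364) encodes the paired and homeodomain factor of cortical radial glia. It stood at 63.6, 57.4 and 61.1 CPM with shRad21_2, at 50.7, 41.2 and 43.8 CPM with shRad21_1, and at 47.1, 40.1 and 41.8 CPM with shNT. The shRad21_2 libraries were above all others, and those of shRad21_1 and shNT overlapped. Pax6 rose 1.41-fold with shRad21_2 against shNT (log2 fold change 0.50, SE 0.10, adjusted p = 0.00310) and 1.34-fold against shRad21_1 (0.42, SE 0.10, adjusted p = 0.0130). This second call was lost without shRad21_1 replicate 2 (0.36) or 3 (0.40) and with close pairs summed (0.38). With shRad21_1 the value was 0.07 (SE 0.10, adjusted p = 0.692).

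Emx2 (ENSMUSG00000043969.4, chromosome 19, 59458372 to 59465357) encodes a homeodomain factor that is graded across the cortical field. It stood at 34.4, 24.8 and 25.9 CPM with shRad21_2, at 23.8, 20.9 and 21.1 CPM with shRad21_1, and at 22.5, 21.5 and 21.9 CPM with shNT. All shRad21_2 libraries were above the others, and replicate 1 was the highest. Emx2 rose 1.29-fold with shRad21_2 (log2 fold change 0.37, SE 0.13, adjusted p = 0.0373). Its value was 0.21 without shRad21_2 replicate 1 (the library with more Rn45s, whose part in the result was not tested), with the call lost, and leaving out any shNT library (0.39, 0.36 and 0.37 for replicates 1, 2 and 3) or shRad21_1 replicate 2 or 3 (0.37 each) also ended the call, as did library totals (0.30) and summed close pairs (0.36). With shRad21_1 the log2 fold change of Emx2 was 0.00 to 2 decimals (adjusted p = 0.997). Between the hairpins its value was 0.37 (SE 0.13, adjusted p = 0.0543), and it was called without shRad21_1 replicate 1 (0.44) or shRad21_2 replicate 2 (0.46). Emx2 shares 264 exon bases with the antisense gene Emx2os. Whether the counting used strand is not stated, so reads from that stretch cannot be assigned to either. Emx2os averaged 5.83 ± 0.885 CPM with shRad21_2, 7.01 ± 0.692 CPM with shRad21_1 and 6.70 ± 1.14 CPM with shNT, with no call in any comparison. Hmga2 and Tnc share 140 and 176 exon bases with antisense genes that had no row of their own.

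Nr2e1 (ENSMUSG00000019803.11, chromosome 10, 42561963 to 42583632) encodes TLX, an orphan nuclear receptor needed for neural stem cell renewal in mice. It stood at 36.9, 33.9 and 34.8 CPM with shRad21_2, at 23.5, 28.3 and 29.5 CPM with shRad21_1, and at 35.2, 26.3 and 25.8 CPM with shNT. The shNT replicate 1 lay among the shRad21_2 libraries, so those groups overlapped, whereas both hairpin groups stayed apart from each other. Its log2 fold change was 0.28 with shRad21_2 (SE 0.13, adjusted p = 0.120), -0.10 with shRad21_1 (SE 0.13, adjusted p = 0.684) and 0.38 between the hairpins (SE 0.13, adjusted p = 0.0630). Without shNT replicate 1, Nr2e1 was called with shRad21_2 (0.44, adjusted p = 0.0169) and between the hairpins (0.38, adjusted p = 0.0281), and its value with shRad21_1 was 0.06.

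Other factors that pattern the forebrain were called in both directions. Of 23 listed, Pax6, Emx2 and Nr2e1 included, 17 were tested. With shRad21_2, 9 rose, Pax6 and Emx2 among them, and 3 fell (median log2 fold change 0.37), beside 21.1% of all genes higher and 22.5% lower. With shRad21_1, 4 rose and 0 fell (median 0.07), beside 4.19% higher and 5.63% lower. Between the hairpins, 2 were higher and 3 lower with shRad21_2 (median -0.01), beside 11.9% of all genes higher and 14.4% lower. Lhx2, a LIM homeodomain factor that specifies cortex, averaged 35.3 ± 1.18 CPM with shRad21_2 and 22.01 ± 2.84 CPM with shNT (0.68, SE 0.14, adjusted p = 0.00306). Dmrta2, a doublesex-related factor of the medial cortex, averaged 20.8 ± 2.09 CPM with shRad21_2, 28.5 ± 2.28 CPM with shRad21_1 and 12.9 ± 1.07 CPM with shNT, and rose under both (0.69, SE 0.11, adjusted p = 9.13e-04, and 1.15, SE 0.11, adjusted p = 5.54e-04). Gsx2, which marks ventral progenitors, averaged 1.48 ± 0.178 CPM with shRad21_2, 4.52 ± 2.66 CPM with shRad21_1 and 7.01 ± 1.17 CPM with shNT, and fell with shRad21_2 (-2.25, SE 0.44, adjusted p = 0.00263). Dlx2 and Dlx1 of the same list rose with shRad21_2 (0.88, adjusted p = 0.0381, and 0.61, adjusted p = 0.0142). With shRad21_1 they rose as well (1.37, adjusted p = 0.0204, and 0.84, adjusted p = 0.0130). Dlx2 had the highest log2 fold change of the list with either hairpin, at 38 to 138 counts in a library. Summing the close pairs ended these calls. Without single libraries, the Dlx2 calls held in 4 of 9 fits with shRad21_2 and 5 of 9 with shRad21_1. The cortical marker Emx1 had 1 count in the 9 libraries together, Neurog1 had 0, and Neurog2 had at most 22 counts in a library, although the cells are labelled as cortical.

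Hmga2 (ENSMUSG00000056758.14, chromosome 10, 120361275 to 120476469) was the only one of the 10 called higher with shRad21_1. It stood at 23.4, 31.6 and 31.7 CPM with shRad21_2, at 28.3, 51.9 and 52.7 CPM with shRad21_1, and at 15.04, 25.6 and 24.4 CPM with shNT. Replicate 1 was the lowest library in each of the 3 groups. Hmga2 rose 2.04-fold with shRad21_1 (log2 fold change 1.03, SE 0.26, adjusted p = 0.0356), and its value was 0.41 with shRad21_2 (SE 0.26, adjusted p = 0.228) and -0.62 between the hairpins (SE 0.26, adjusted p = 0.105). The call with shRad21_1 was lost without shNT replicate 1 (0.82), 2 (1.16) or 3 (1.12), without shRad21_1 replicate 2 (0.90) or 3 (0.89), or without shRad21_2 replicate 2 or 3 (1.03 each), in a fit of 2 groups (1.03) and with close pairs summed (1.01). Between the hairpins Hmga2 was called without shRad21_1 replicate 1 (-0.86, adjusted p = 0.00918).

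Genes of the same let-7 and LIN28 axis were tested beside Hmga2. Of 12 listed, Hmga2 included, 9 were tested. With shRad21_2, 3 rose and 0 fell (median log2 fold change 0.41), and these 33.3% are below the 43.6% of all genes called. With shRad21_1, 3, Hmga2 among them, rose and 0 fell (median 0.50, 33.3% beside 9.82%). Igf2bp2, an mRNA-binding protein that is itself a target of HMGA2, averaged 64.6 ± 1.43 CPM with shRad21_2, 67.8 ± 7.16 CPM with shRad21_1 and 34.4 ± 4.03 CPM with shNT. It rose under both hairpins (0.91, SE 0.11, adjusted p = 1.30e-04, and 0.98, SE 0.11, adjusted p = 8.18e-04), with calls that held without each library in turn. Igf2bp3 averaged 33.3 ± 1.48, 47.7 ± 11.3 and 26.0 ± 1.59 CPM in the same order and rose with shRad21_1 (0.88, SE 0.16, adjusted p = 0.00838), and its value with shRad21_2 was 0.36 (SE 0.15, adjusted p = 0.0856). The shRad21_1 call of Igf2bp3 was lost with close pairs summed (0.76, adjusted p = 0.115). Trim71, a let-7 target, and Nr6a1, an orphan nuclear receptor gene, rose with shRad21_2 (0.95, SE 0.22, adjusted p = 0.00682, and 0.71, SE 0.19, adjusted p = 0.0119). Lin28a and Igf2bp1 were at 0 in all 9 libraries, and Lin28b had at most 4 counts in any.

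The order of the 10 levels per length was nearly the same in the 3 groups. Levels between genes were compared as CPM per kilobase of merged GENCODE exons, which counts all annotated isoforms of a gene. In shNT, Fabp7 was the highest at 1404 ± 30.7 CPM per kb, followed by Vim (797 ± 71.6), Nes (190 ± 14.6), Tnc (148 ± 12.2), Ednrb (102 ± 3.58) and Ptprz1 (85.8 ± 5.58). Far below them came Nr2e1 (7.84 ± 1.42), Emx2 (7.31 ± 0.159), Pax6 (3.68 ± 0.313) and Hmga2 (3.20 ± 0.857). Nr2e1 and Emx2 overlapped in all 3 groups, and Pax6 and Hmga2 overlapped in shNT. With shRad21_2 the same order held for all 10 genes, but the steps differed: Nes was at 388 ± 29.4 CPM per kb, against 619 ± 87.3 for Vim, and Ptprz1 was at 22.3 ± 4.60 and Ednrb at 35.4 ± 1.91. With shRad21_1, Nes (228 ± 67.7) and Tnc (189 ± 27.9) overlapped, as did Ednrb and Ptprz1, and Hmga2 (6.54 ± 2.05) stood above Pax6 (3.87 ± 0.422) with overlap.

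**Figure D3:**
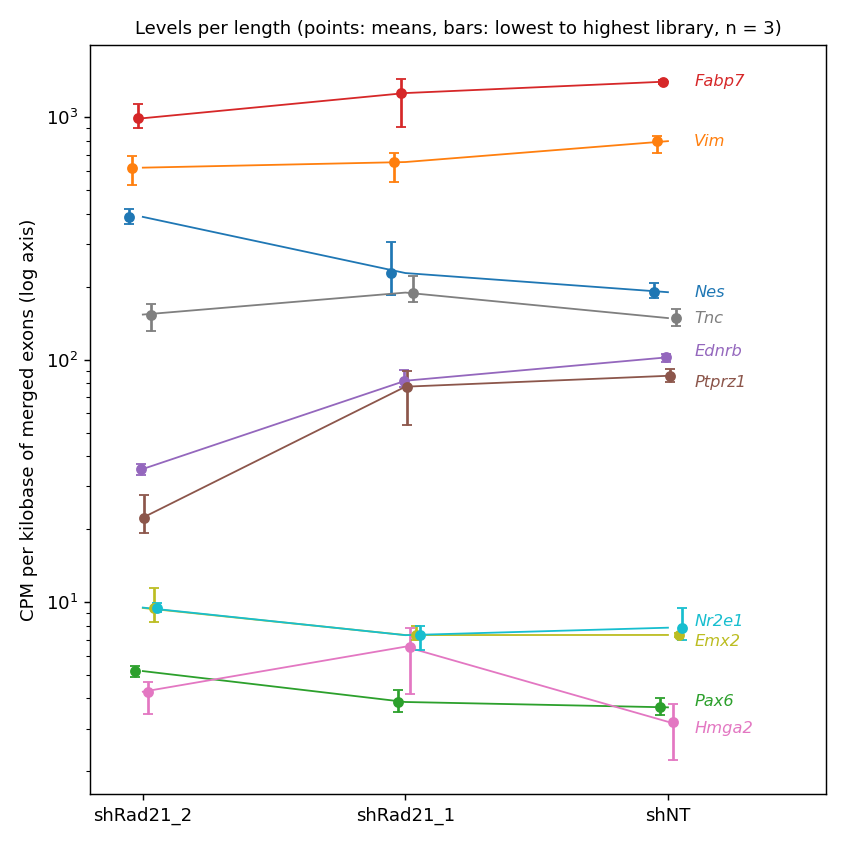
Levels of the 10 genes per length (CPM per kilobase of merged exons, log axis) with shRad21_2, shRad21_1 and shNT from left to right. Points are means and bars run from the lowest to the highest library (n = 3). With shRad21_2, Nes lies closer to Vim (388 and 619 CPM per kb) and Ptprz1 and Ednrb lie lower (22.3 and 35.4 CPM per kb) than with shNT (85.8 and 102 CPM per kb).

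Across the 9 libraries some of the genes varied together and others did not. Pearson correlations of log2 CPM are given as a description, since the libraries share 3 treatments. Nes had r = 0.97 with Pax6 and r = 0.85 with Emx2, and r = -0.95 with Ptprz1, -0.92 with Fabp7 and -0.86 with Ednrb. Ptprz1 had r = 0.93 with Ednrb and -0.95 with Pax6. Vim had r = -0.71 with Nes and 0.76 with Fabp7, and Nr2e1 had r = 0.67 with Pax6 and -0.72 with Ednrb. Tnc had r = 0.10 with Nes, 0.19 with Ptprz1 and -0.02 with Pax6, and its farthest value from 0 was -0.61, with Vim. Hmga2 had values between -0.31 (Emx2) and 0.21 (Tnc) with the other 9 genes. Among 9703 other genes with a mean log2 CPM of at least 3, the 4 most like Nes were Nfkb1 (r = 0.997), Glis2 (0.992), Col28a1 (0.992) and Shb (0.991). Shb, a signalling adaptor gene, averaged 38.3 ± 0.421 CPM with shRad21_2, 17.0 ± 6.52 CPM with shRad21_1 and 13.7 ± 1.81 CPM with shNT. The 4 most like Ptprz1 were Slc4a4 (r = 0.996), Sema5b (0.995), Snx13 (0.994) and Col12a1 (0.992). Sema5b, a semaphorin gene, averaged 49.4 ± 3.65, 79.9 ± 8.82 and 81.2 ± 5.27 CPM in the same order.

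Of 30 other genes of radial glia and neural stem cells, all were tested. With shRad21_2, 6 rose and 10 fell (median log2 fold change -0.17), 53.3% called beside 43.6% of all genes. With shRad21_1, 3 rose and 4 fell (median -0.08), 23.3% beside 9.82% of all genes. Between the hairpins, 4 rose and 9 fell with shRad21_2 (median -0.19), 43.3% beside 26.3% of all genes. Like the 10 genes above, they went both ways. Prom1, the surface protein prominin-1, averaged 7.94 ± 1.05 CPM with shRad21_2, 8.25 ± 0.319 CPM with shRad21_1 and 1.35 ± 0.249 CPM with shNT and rose under both (2.55, SE 0.18, adjusted p = 7.16e-06, and 2.61, SE 0.18, adjusted p = 1.73e-04). Sox1, a SOXB1 factor of neural progenitors, averaged 112 ± 3.51, 62.6 ± 0.859 and 69.3 ± 13.7 CPM in the same order and rose with shRad21_2 (0.69, SE 0.12, adjusted p = 0.00127). Fgfr2, an FGF receptor gene, had the lowest log2 fold change. It averaged 3.06 ± 0.0585, 13.3 ± 1.54 and 22.9 ± 0.208 CPM in the same order and fell under both (-2.91, SE 0.12, adjusted p = 4.88e-07, and -0.79, SE 0.11, adjusted p = 0.00259). Itga6, the laminin-binding integrin subunit, averaged 56.3 ± 5.03, 136.8 ± 15.9 and 195.2 ± 7.29 CPM and fell under both (-1.79, SE 0.10, adjusted p = 3.22e-06, and -0.51, SE 0.10, adjusted p = 0.0113). With close pairs summed, the shRad21_1 calls of Fgfr2 (-0.84, adjusted p = 0.0530) and Itga6 (-0.58, adjusted p = 0.0936) were lost. Lrig1, a repressor of EGF receptor signalling, fell with shRad21_2 (-1.91, SE 0.23, adjusted p = 1.75e-04). Cdh2, the N-cadherin gene, rose with shRad21_1 (0.62, SE 0.07, adjusted p = 8.43e-04), and its value with shRad21_2 was -0.08 (SE 0.07, adjusted p = 0.353). Sox2, the factor most used to define neural stem cells, averaged 386 ± 42.1 CPM with shRad21_2, 344 ± 66.0 CPM with shRad21_1 and 402 ± 42.2 CPM with shNT and was not called in any comparison (it was named after its values were seen). Slc1a3 of the same list had 24798, 20850 and 20794 counts with shRad21_2, 30977, 43327 and 43910 with shRad21_1, and 41870, 47569 and 50186 with shNT. Hes5 had 168, 498 and 436, 96, 1486 and 1695, and 1292, 1990 and 2167 counts in the same order. Both were also named after their values were seen. Summed CPM of the 30 genes was 4158 to 4267 with shRad21_2, 4424 to 5701 with shRad21_1 and 5633 to 5642 with shNT.

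**Figure D4:**
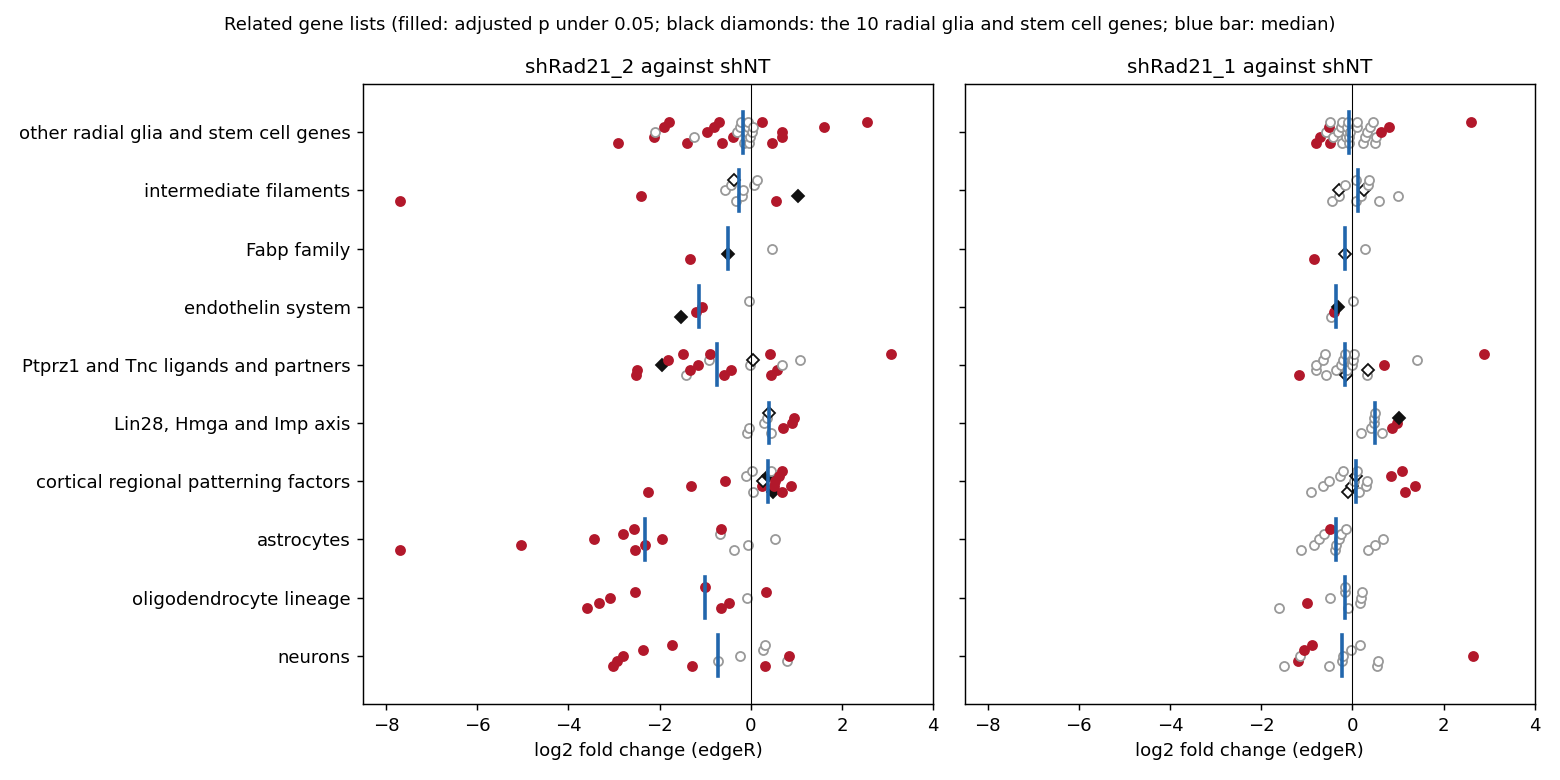
Log2 fold changes (x axis) of the tested genes of 10 lists (rows) for shRad21_2 against shNT (left) and shRad21_1 against shNT (right), 1 symbol per gene. Filled symbols passed an adjusted p of 0.05, black diamonds are the 10 radial glia and stem cell genes where a list holds them, and blue bars are list medians. The astrocyte median is -2.33 on the left and -0.35 on the right, and that of the LIN28 and let-7 axis is 0.41 and 0.50.

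Summed CPM of astrocyte, neuronal, microglial and mesenchymal markers was lower in each shRad21_2 library than in any shNT library. The oligodendrocyte lineage and endothelial sums overlapped between those groups. In bulk samples such as these, fewer cells of a type and less RNA per cell cannot be told apart. Summed CPM of 14 astrocyte markers was 1390 to 1550 with shRad21_2, 1265 to 2190 with shRad21_1 and 2378 to 2591 with shNT, and the lowest shRad21_1 value was that of replicate 1. Of 13 tested, 9 fell and 0 rose with shRad21_2 (median log2 fold change -2.33), beside 22.5% of all genes lower and 21.1% higher. With shRad21_1, 1 fell and 0 rose (median -0.35), beside 5.63% of all genes lower and 4.19% higher. Ptprz1, Fabp7 and Ednrb are also expressed by astrocytes, and the part of the astrocyte marker shift in their values was not tested. Summed CPM of 12 oligodendrocyte lineage markers overlapped between shRad21_2 (2746 to 3149) and shNT (2865 to 2998), and stood at 3163 to 3341 with shRad21_1. That sum is mostly Olig1 and Olig2. Of 9 tested, 7 fell and 1 rose with shRad21_2 (median -0.997), beside 22.5% of all genes lower and 21.1% higher. Summed CPM of 18 neuronal markers was 1132 to 1250 with shRad21_2, 1218 to 1275 with shRad21_1 and 1254 to 1379 with shNT. Most of it was Map2 (988.6, 885 and 793 CPM on average in the same order). Of 13 tested, 6 were lower and 2 higher with shRad21_2, beside 22.5% of all genes lower and 21.1% higher. Microglia were hardly represented: the summed CPM of 7 markers was 0.343 to 0.763 with shRad21_2, 1.38 to 2.47 with shRad21_1 and 1.82 to 3.16 with shNT, and Aif1 and Cx3cr1 were at 0 in all libraries. Summed CPM of 7 endothelial markers was 7.56 to 9.74 with shRad21_2, 6.99 to 14.98 with shRad21_1 and 8.14 to 9.03 with shNT. That of 7 mesenchymal markers was 0.381 to 0.656 with shRad21_2, 4.10 to 9.95 with shRad21_1 and 2.42 to 5.03 with shNT, mostly Acta2 in the shRad21_1 and shNT libraries (means of 7.02 and 3.09 CPM, against 0.148 CPM with shRad21_2).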

How the data were processed

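The deposited table holds whole-number counts per gene symbol for 9 libraries, not normalised. Per the submitters' processing notes, the authors used FastQC, cutadapt, Trim Galore, Bowtie2 and RSEM with build mm10. The sources used here do not give versions, annotation, strand setting or how RSEM estimates became whole numbers; 6715 of the 24503 rows were 0 throughout. The test was edgeR 4.0.16 in its quasi-likelihood form (R 4.3.3; TMM scaling, filterByExpr by group, 13560 genes, all 9 libraries in 1 fit of 3 group means, two-sided). Calls are Benjamini-Hochberg adjusted p-values under 0.05 over all genes tested; the SE is the log2 fold change divided by the root of F. Log2 CPM for correlations used a prior count of 2. Gene positions and exon lengths come from GENCODE M21 (the same build).

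The members, lists and tests were chosen with earlier results of these data known. Genes named by rule are the 10 members, up to 4 called genes per direction of each list, and the 4 genes most correlated with the highest and the lowest member. Genes outside this rule are also named, among them Sox2, Slc1a3, Hes5, Ece2, Synm, Ina, Des, Emx1, Neurog2, Map2, Acta2 and Emx2os. Deviations from group means in same-numbered libraries of shRad21_1 and shNT had correlations of 0.24, 0.12 and 0.12 for replicates 1, 2 and 3. Libraries of different number were not compared, and replicates 2 and 3 were close to each other in both groups. These values therefore cannot decide a pairing, and the labels state none. The main fit used no pairing. Fitted with the number as a block, no member's call changed in that comparison. Alternatives were DESeq2 1.42.0 size factors and its Wald test, library totals, looser and stricter filters, limma 3.58.1 (voom), fits of 2 groups, the block, and each library left out.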

Additional observations from a re-analysis of the deposited data

How the results depend on the processing

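The 10 members gave 570 values over 3 comparisons and 19 alternatives, of which 496 kept direction and side of the threshold, 33 lost a call, 25 gained a call and 16 changed sign. No called member changed sign. The sign changes were in values near 0 with no call. With the first libraries of shNT and shRad21_1 left out (chosen after seeing the data), shRad21_1 against shNT gave 0.0417 for Fabp7, 0.10 for Ptprz1 and 0.15 for Nr2e1; with close pairs of libraries summed (also chosen afterwards) it gave 0.0196 for Emx2; with library totals, shRad21_2 against shNT gave -0.0235 for Tnc. Without each library in turn, shRad21_1 values ran from -0.00875 to 0.39 for Nes, -0.0157 to 0.14 for Pax6, -0.27 to 0.0290 for Fabp7, -0.27 to 0.0548 for Ptprz1, -0.0638 to 0.0338 for Emx2 and -0.18 to 0.0574 for Nr2e1. Tnc ran from -0.0301 to 0.15 with shRad21_2, and Vim from -0.20 to 0.0324 between the hairpins. The cause was not tested.

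With close pairs summed, which leaves fewer samples, 0 members were higher and 0 lower with shRad21_1, and 0 were higher between the hairpins; calls over all genes were 130, 3707 and 1270 for shRad21_1, shRad21_2 and between the hairpins. Fits of 2 groups gave 0 members higher with shRad21_1 and 2233 genes between the hairpins. The DESeq2 Wald test called 2042 genes with shRad21_1 and 4 members higher between the hairpins. With the first libraries left out, 4 members were higher and 4 lower between the hairpins. Without each library in turn, 0 to 1 members were higher and 0 to 1 lower with shRad21_1, and 1 to 3 higher and 2 to 4 lower between the hairpins; genes called ran from 460 (without shNT replicate 3) to 1599 with shRad21_1 and from 2045 to 4486 between the hairpins. For shRad21_2 the same-number correlations were 0.06 to 0.08 with shNT and 0.02 to 0.09 with shRad21_1, which cannot decide a pairing either. A replicate block called 6066 genes for shRad21_2 against shNT and 3643 between the hairpins. It added Hmga2 in both (0.44, adjusted p = 0.0118, and -0.58, adjusted p = 0.00746) and, between the hairpins, Emx2 (0.36). With 3 libraries a group, 2 of them close in shNT and shRad21_1, the replicate spread is itself poorly known.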
